A study of Homo sapiens with 2 samples.

Results

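The CHD4 peaks in first introns of protein-coding genes are 5275 of the 60126 regions in the deposited peak list, or 8.77% (Wilson 95% interval 8.55% to 9.002%). A peak was taken when it was longer than 200 bp and shorter than 3000 bp and its centre lay in the first intron of the canonical transcript of a protein-coding gene. In addition, its centre lay in no exon of a canonical transcript, and the peak stayed clear of the 1000 bp on either side of every annotated transcript start, on chromosomes 1 to 22 and X. The choice used position and length and no value of enrichment, but fold enrichment differed with length, so the limits on length bear on it. Positions are hg19, counted from 1, and the annotation is GENCODE release 44 mapped to GRCh37.

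The peaks come from 1 ChIP library against CHD4 and 1 library of input chromatin. Both were made from 501Mel, an established human melanoma cell line kept in RPMI medium with foetal calf serum and fixed with paraformaldehyde. There was no treatment, no second condition and no replicate, so the comparisons here are between places in the genome within this line, and every interval covers counting error only. Whether the input served as control of the peak call is not given in the sources used here.

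CHD4 is the ATPase of the NuRD complex, which moves nucleosomes and carries histone deacetylases. NuRD is known to sit at promoters and enhancers, where it tempers transcription and chromatin opening. The first intron lies directly downstream of the promoter and is known as a frequent place for enhancers. In melanocytes and melanoma, the lineage factor MITF binds the M-box, an extended E-box, and AP-1 factors bind enhancers of the less differentiated cell state.

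In all, 8426 peak centres lay in a canonical first intron. Of these, 127 were also in a canonical exon and 2168 were removed because the peak touched the surroundings of a transcript start. A further 672 were too short and 184 too long. The 137 members just longer than the lower limit had a median fold enrichment of 2.92, and the 152 peaks just shorter than it had 2.995. At the upper limit, the 111 longest members had a median of 3.47 and the 66 peaks just above the limit 3.43. For 35 members the centre lay in an exon of a non-canonical transcript, and 94 members lay in the first introns of more than 1 gene, of which 1 was shared by 19 genes, with the start of *PCDHGA12* nearest.

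The following stretches of the GRCh37 plus strand show the sequence at or near the centres of these peaks. The first 2 are the 101 bases around the centre of the strongest peak in *ZNF839* and *BICRA*, the named genes of highest fold enrichment with sequence shown here.
*ZNF839*, chr14:102789347-102789447: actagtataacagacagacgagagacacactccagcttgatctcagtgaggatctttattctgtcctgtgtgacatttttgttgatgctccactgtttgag
*BICRA*, chr19:48119430-48119530: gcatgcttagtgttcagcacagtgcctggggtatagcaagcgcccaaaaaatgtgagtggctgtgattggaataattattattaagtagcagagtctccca
The next 6 are the 81 bases around a motif match near the centre of the strongest peak of a gene, with the match in capitals. They show the CTCF consensus in *PDE4A* and *GPRIN3*, the M-box in *FNTB* and the AP-1 site in *STK10*, *MITF* and *DVL1*. The stretch of *GPRIN3* lies just outside its peak, which is 218 bp long.
*PDE4A*, chr19:10535120-10535200: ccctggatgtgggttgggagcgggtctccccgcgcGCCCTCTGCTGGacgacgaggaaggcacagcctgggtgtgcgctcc
*GPRIN3*, chr4:90176065-90176145: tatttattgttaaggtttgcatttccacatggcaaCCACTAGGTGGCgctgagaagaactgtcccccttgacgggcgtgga
*FNTB*, chr14:65457137-65457217: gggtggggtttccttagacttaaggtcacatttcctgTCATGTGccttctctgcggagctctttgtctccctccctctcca
*STK10*, chr5:171606634-171606714: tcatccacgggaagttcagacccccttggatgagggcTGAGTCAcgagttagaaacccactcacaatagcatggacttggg
*MITF*, chr3:69870200-69870280: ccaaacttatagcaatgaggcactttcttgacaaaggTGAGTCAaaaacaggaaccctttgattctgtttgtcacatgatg
*DVL1*, chr1:1280293-1280373: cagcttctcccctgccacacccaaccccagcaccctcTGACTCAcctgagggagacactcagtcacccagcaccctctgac
The last 3 are the centres of the strongest first-intron peak of *MAML2*, the gene with most such peaks, and of the single first-intron peaks of *PADI1*, an arginine deiminase gene that the study examined, and of *PADI2*, another gene of that family.
*MAML2*, chr11:95831783-95831883: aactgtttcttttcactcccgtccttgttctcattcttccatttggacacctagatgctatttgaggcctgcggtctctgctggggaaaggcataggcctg
*PADI1*, chr1:17545530-17545630: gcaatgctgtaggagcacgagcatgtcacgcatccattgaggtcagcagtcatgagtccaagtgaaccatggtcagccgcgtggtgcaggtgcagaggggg
*PADI2*, chr1:17436802-17436902: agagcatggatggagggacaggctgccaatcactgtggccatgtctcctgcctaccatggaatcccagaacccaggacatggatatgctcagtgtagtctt

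First-intron peaks were weak and much alike. Their enrichment over background, as computed by the authors, had a median of 3.02 (95% interval of the median 3.01 to 3.04), with quartiles of 2.82 and 3.31 and a range from 2.02 to 6.15. Peaks in later introns, chosen with the same limits on length and starts, had a median of 3.02 (3.01 to 3.02), and all peaks of the list 3.09. A q of at most 0.01 was given for 40.2% of first-intron peaks (38.9% to 41.5%) and 40.8% of later-intron peaks (39.9% to 41.7%), against 48.5% of the whole list. The intervals of first and later introns overlap in both measures. A −log10 q of at least 5 was reached by 61 first-intron peaks, or 1.16% (0.901% to 1.48%), by 183 later-intron peaks, or 1.54% (1.33% to 1.78%), and by 2.23% of the whole list. A fold enrichment of at least 4 was found for 179 first-intron peaks (3.39%), against 4.01% of later-intron peaks and 5.51% of the whole list. One of at least 5 was found for 9 (0.171%), against 0.244% and 0.502%. The median length was 617 bp, with quartiles of 398 and 1035 bp. Fold enrichment was higher in longer peaks in both kinds of intron, from a median of 2.91 among first-intron peaks of at most 400 bp to 3.37 among those over 2000 bp. The matching later-intron medians were 2.91 and 3.36.

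The strongest peak lay in the first intron of *ZNF839*, a zinc finger gene, on chromosome 14 from 102789267 to 102789527. Its enrichment was 6.15-fold and its −log10 q 9.75, the highest of all members in both measures, and its centre lay 3314 bp from the transcript start. *BICRA*, a subunit of the ncBAF chromatin remodelling complex, ranked 2nd by −log10 q, with 9.60, and 3rd by fold enrichment, with 5.57. Its peak lay on chromosome 19 from 48119341 to 48119620. *SENP7*, a SUMO protease, had the third highest −log10 q, 9.29, but a fold enrichment of only 4.67, which ranked 22nd. The peak of *ROR1*, a Wnt5a receptor, had a fold enrichment of 5.38. Of these 4 peaks, 3 lay within 10 kb of the start, beside 29.6% of all first-intron peaks, and the one in *ROR1* lay beyond.

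The other named peaks had fold enrichments between 4.82 and 5.61. *RB1CC1*, an autophagy initiation factor, had a peak of 5.30-fold with 2 AP-1 matches and 1 M-box near its centre. *MAST3*, a kinase, had one of 5.30, *SYTL2*, a Rab27 effector in vesicle transport, one of 5.19 and *PDE4A*, a cAMP phosphodiesterase, one of 5.21. *GPRIN3*, *FNTB*, the beta subunit of protein farnesyltransferase, and *STK10*, a kinase, reached 5.01, 4.95 and 4.91. *LIMD1*, a LIM domain scaffold of the Hippo pathway, and *MYT1*, a zinc finger factor of neural cells, had 4.83 and 4.82. The *MYT1* peak ran past the end of the intron. The remaining 2 lay in genes listed by identifier only, ENSG00000288715 with 5.61 and ENSG00000272297 with 4.85. Of these 15 genes, 6 had a peak at their own promoter and 9 had none, beside 51.2% of all host genes with one. These peaks ran from 218 bp in *GPRIN3* to 2727 bp in *MYT1*, and 10 of the 15 were under 700 bp. The median over all first-intron peaks was 617 bp, so lengths under 700 bp were common among all members too.

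Per megabase (Mb) of usable sequence, peaks were denser in first introns than in later introns. First introns held 22.5 peaks per Mb (21.9 to 23.2, over 234 Mb) and later introns 16.2 (15.9 to 16.5, over 733 Mb, 11873 peaks). The ratio was 1.39 (1.35 to 1.44), and 1.34 when later introns were weighted to the same distances from the start. The excess depended on distance. Between 5 and 10 kb from the start, first introns held 24.0 peaks per Mb and later introns 14.6, a ratio of 1.65 (1.46 to 1.87). From 20 to 50 kb the ratio was 1.34 (1.25 to 1.43) and from 50 to 100 kb 1.23 (1.13 to 1.33). Beyond that the order turned. From 100 to 200 kb, first introns held 14.6 per Mb and later introns 17.4 (ratio 0.840, 0.745 to 0.944), and beyond 200 kb 8.12 against 12.4 (ratio 0.656, 0.542 to 0.788). When a −log10 q of at least 2 was required, the ratio was 1.34 (1.26 to 1.42) within 100 kb, and beyond 100 kb it was 0.906 (0.779 to 1.05), an interval that includes 1. When a −log10 q of at least 5 was required, first and later introns could not be told apart, with a ratio of 1.05 (0.769 to 1.40) over all distances and 0.515 (0.137 to 1.37) beyond 100 kb.

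**Figure D1:**
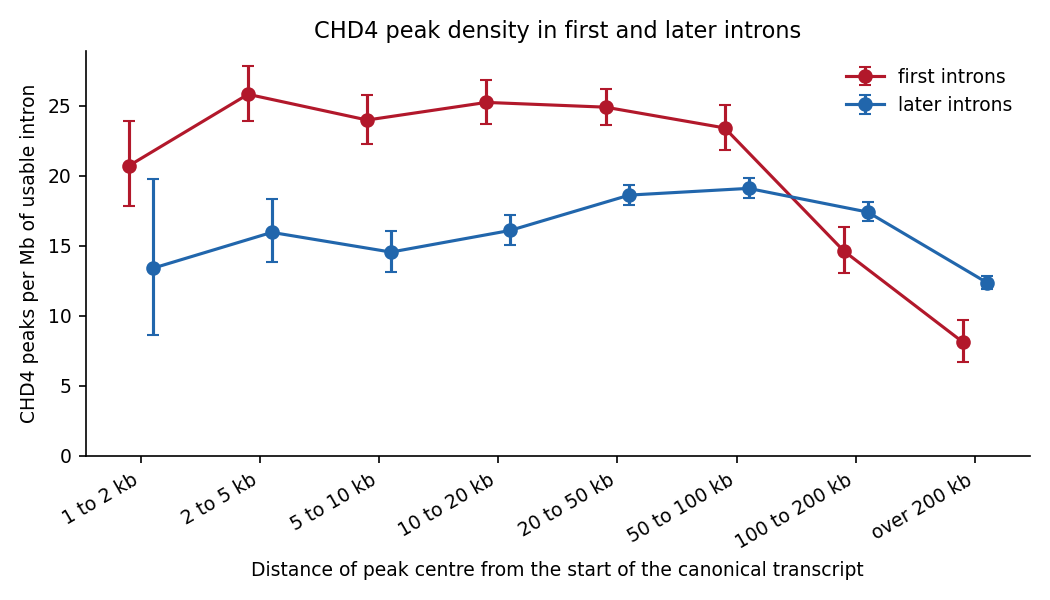
CHD4 peaks per Mb of usable intron (y axis) by distance of the peak centre from the transcript start (x axis), in first introns (red) and later introns (blue); bars are exact Poisson 95% intervals for counting error. First introns sit above later introns in every class up to 100 kb, from 20.7 against 13.4 at 1 to 2 kb to 23.4 against 19.1 at 50 to 100 kb, and below them in both classes beyond.

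The surroundings of starts were left out by the choice of peaks, and distance also follows the sequence available. The median peak centre lay 21057 bp from the start, 48.4% lay within 20000 bp (47.0% to 49.7%) and 91.7% within 100000 bp. The farthest lay 616128 bp away, in *PDE4D*. Along the intron the peaks were spread almost evenly. With each intron cut into 5 equal stretches, the stretch nearest the start held 18.0% of them, the middle one 21.4% and the last 19.1%. In introns of at least 20000 bp the stretches held from 19.2% to 20.8%. Another peak lay within 5000 bp of 61.5% of first-intron peaks (60.1% to 62.8%) and of 53.8% of later-intron peaks (52.9% to 54.7%). Fold enrichment changed little with distance, from a median of 2.96 at 1 to 2 kb to 3.10 at 100 to 200 kb.

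Among the 12556 protein-coding genes with a usable first intron, 2389 had at least 1 such peak, which is 19.0% of these genes (18.3% to 19.7%). A single peak was found in 1324 of them, 2 to 4 peaks in 827 and 5 or more in 238, and these 238 genes carried 1911 peaks. A peak shared by overlapping genes is counted for each here. Host genes had longer first introns, with a median of 28795 bp against 6024 bp for genes without a peak. The share of genes with a peak was higher in longer introns, from 3.38% (2.81% to 4.06%) at 2 to 5 kb to 38.5% (36.4% to 40.6%) at 20 to 50 kb and 57.4% (52.8% to 61.8%) at 100 kb or more. Density did not follow the same course. It was 17.5 per Mb at 2 to 5 kb, between 25.0 and 26.6 per Mb in the classes from 5 to 100 kb and 16.4 per Mb in the longest introns.

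Host genes more often carried CHD4 at their promoter. A peak within 1000 bp of the canonical start was found in 1222 of the 2389 host genes, or 51.2% (49.1% to 53.2%), and in 3334 of the 10167 genes without a first-intron peak, or 32.8% (31.9% to 33.7%). Over all genes with a usable first intron the share was 36.3%. Genes with a promoter peak held 41.0 peaks per Mb of first intron (39.6 to 42.6) and genes without one 14.6 (14.0 to 15.1), a ratio of 2.82 (2.67 to 2.98). These values depended on the strength required of every peak. When −log10 q had to reach 2, 31.9% of hosts had a promoter peak and the ratio was 2.35 (2.14 to 2.57), and when it had to reach 5 they were 1.69% and 1.51 (0.0376 to 8.74), an interval that includes 1. The difference was present in each length class from 2 kb upward. At 20 to 50 kb, 53.1% of genes with a promoter peak (49.7% to 56.5%) and 29.0% of genes without (26.6% to 31.6%) had a first-intron peak, and at 100 kb or more 86.6% and 49.7%. Later introns moved with promoter peaks too, with 24.0 peaks per Mb in genes with a promoter peak and 12.3 in genes without, a smaller ratio of 1.96 (1.88 to 2.04). The excess of first over later introns was 1.71 (1.63 to 1.79) in genes with a promoter peak and 1.19 (1.13 to 1.25) in genes without.

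**Figure D2:**
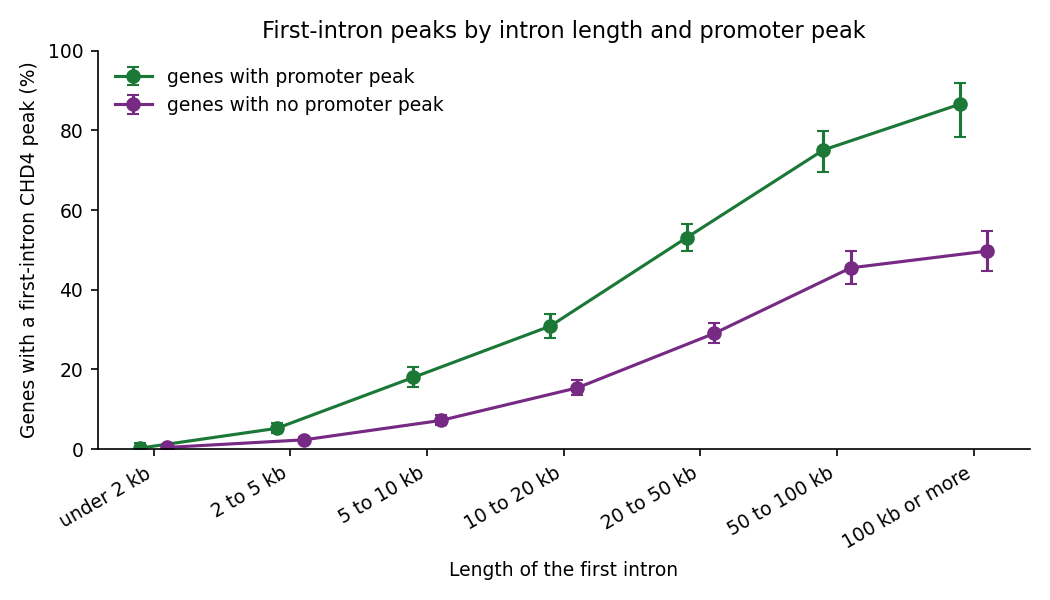
Share of genes with at least 1 first-intron CHD4 peak (y axis, percent) by length of the first intron (x axis), for genes with (green) and without (purple) a CHD4 peak within 1000 bp of the canonical start; bars are Wilson 95% intervals. Both lines climb with length, and from 2 to 5 kb (5.22% against 2.34%) to 100 kb or more (86.6% against 49.7%) the genes with a promoter peak lie higher.

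The 10 genes with most first-intron peaks held 18 or more each. *MITF* and *NRG3*, which also had 18, came after them by name, and *MITF* is described with the pigment genes. *MAML2*, a coactivator of Notch signalling, had the most, with 34 peaks over an intron of 247865 bp on chromosome 11, from 95826682 to 96074546 on the minus strand. That was 138 per Mb (95.5 to 193), against 81.0 per Mb in its later introns. Their fold enrichments ranged from 2.56 to 4.33 with a median of 3.20, and 19 of the 34 had a q of at most 0.01. *KCNQ5*, a potassium channel, had 28 peaks (74.6 per Mb) from 3792 to 378250 bp of the start, and *ST6GALNAC3*, a sialyltransferase, 23 (97.0 per Mb). *TRIO*, a guanine nucleotide exchange factor, and *PDE4D*, a cAMP phosphodiesterase, had 21 each, but the *TRIO* intron is 126942 bp long and that of *PDE4D* 677200 bp, which gave 171 and 31.9 peaks per Mb.

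*FMNL2*, a formin of the actin skeleton, and *PTPRJ*, a receptor tyrosine phosphatase, had 20 peaks each. *PDE3A*, another phosphodiesterase, had 19, and *KIRREL3* and *LSAMP*, adhesion molecules of the immunoglobulin family, had 18. In *PTPRJ* the strongest peak lay 10397 bp from the start with a fold enrichment of 4.56, and in *PDE4D* the strongest lay 103626 bp away with 4.75. No first-intron peak of *PDE4D* lay nearer than 100730 bp to the canonical start, whereas *PTPRJ* had one at 7199 bp. Of the 10 genes, 7 had a promoter peak, whereas *PDE4D*, *PDE3A* and *KIRREL3* had none. Among all host genes with first introns of 100 kb or more, 31.2% had one. The first intron was denser than the later introns in each of the 10, which were chosen for their first-intron peaks. None of these 222 peaks held a CTCF match, which was found in 0.512% of all first-intron peaks. An AP-1 match was found in 1 to 5 and an M-box in 1 to 4 peaks of each gene, beside 11.7% and 12.2% of all first-intron peaks.

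**Figure D3:**
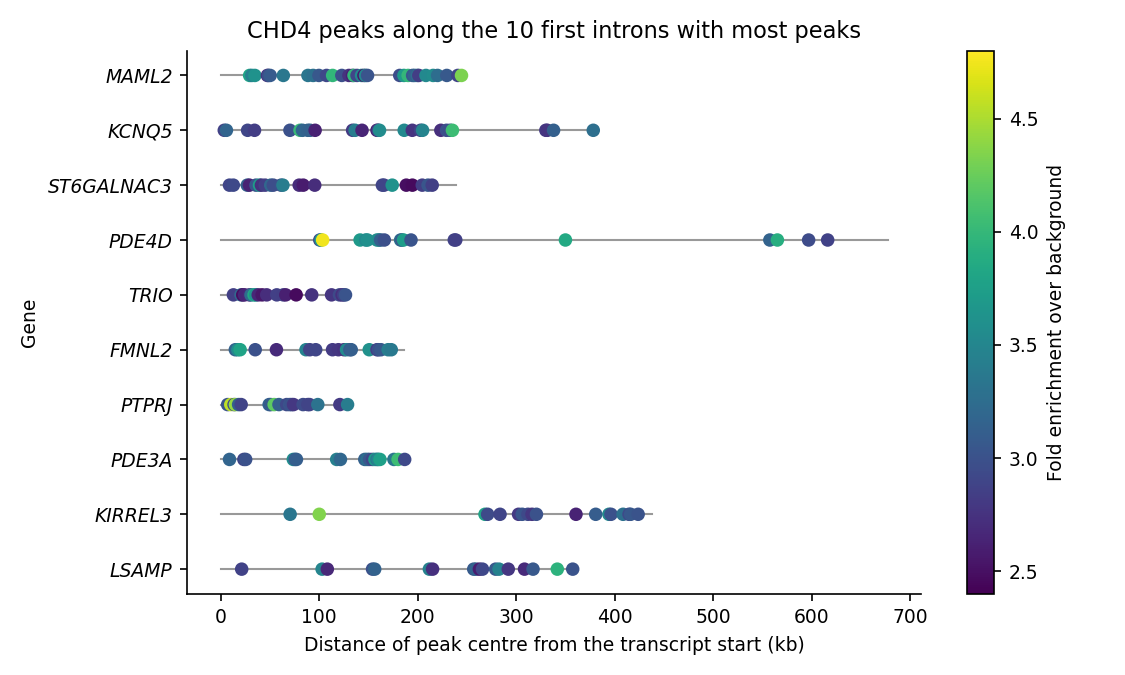
CHD4 peaks (points) along the first introns (grey lines) of the 10 genes with most first-intron peaks; the x axis is the distance of the peak centre from the transcript start in kb and the colour is the authors' fold enrichment over background. The peak nearest the start lies at 7199 bp in *PTPRJ*, 29531 bp in *MAML2* and 100730 bp in *PDE4D*.

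The densest first introns among genes with at least 3 peaks were short. *ATOH8*, a basic helix-loop-helix factor, held 3 peaks in an intron of 9033 bp, and *NBL1*, a secreted BMP antagonist, 3 in 10564 bp. *HAS2*, a hyaluronan synthase, and *PI4K2A*, a phosphatidylinositol kinase, held 4 each in 11512 and 9763 bp. *GMPR*, a GMP reductase, held 3 in 8061 bp. Per Mb of usable sequence, which is shorter than the intron because the surroundings of starts and exons are left out, these are between 414 and 473 peaks, but on so few peaks the intervals are wide, for *ATOH8* from 97.6 to 1382. All but *ATOH8* had a promoter peak, beside 51.2% of all host genes.

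Gene lists were compared by their peaks per Mb of first intron, beside 22.4 per Mb over all usable genes (21.8 to 23.0). Among the 11 lists of pathways and cell states, pigment and melanosome genes had the highest value, 70.8 per Mb (49.6 to 98.1), from 36 peaks in 8 of 25 genes. That is 32.0% of the genes (17.2% to 51.6%), an interval that includes the 19.0% of all usable genes. Of these 36, 18 were in *MITF* and 8 in *MYO5A*, the myosin that carries melanosomes, and without *MITF* the value was 47.3 (28.0 to 74.7). The later introns of the same genes were also dense, at 35.0 per Mb against 16.1 over all genes. *TPCN2*, a melanosomal ion channel, had 1 peak of 3.60-fold and *MLPH*, which links Rab27a to myosin Va, 1 of 3.54-fold. The pigment genes *TYR*, *DCT*, *PMEL* and *OCA2*, named after their values were seen, had no first-intron peak, although *TYR*, *DCT* and *OCA2* had one at the promoter. Their first introns ran from 4203 bp in *PMEL* to 17328 bp in *OCA2*, and most genes with introns of this size had no peak. Of all usable genes, 3.38% had a first-intron peak at 2 to 5 kb and 21.6% at 10 to 20 kb.

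*MITF*, the lineage transcription factor, was described peak by peak. Its canonical first intron runs from 69788853 to 69928284 on chromosome 3, plus strand, and held 18 peaks, or 141 per Mb (83.7 to 223). Its later introns held 13 peaks at 162 per Mb, so the canonical first intron was not the denser part of this gene. The canonical transcript was taken from the annotation, and which start of *MITF* these melanoma cells use was not tested. The peaks are therefore first-intron peaks of that transcript only. The strongest peak, from 69869059 to 69871593, had an enrichment of 3.61-fold and a −log10 q of 3.28, and its centre lay 81711 bp from the canonical start. The next, from 69886939 to 69889554, had 3.50, and the one from 69824705 to 69825440 had 3.35. The lowest, from 69836594 to 69837026, had 2.60. Of the 18, 8 had a q of at most 0.01, beside 40.2% of all members. An M-box was found near the centre of 4 and an AP-1 site near the centre of 3, beside 12.2% and 11.7% of all members. The strongest peak held both, with the AP-1 site shown above from 69870237 to 69870243. The *MITF* peaks stayed near the typical strength, with a median of 2.97-fold against 3.02 for all members.

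Signalling genes of the TGF-beta and BMP pathways had 33 peaks in 11 of 18 genes, or 43.5 per Mb (29.9 to 61.1), while their later introns held 22.9 (14.5 to 34.4). The share of genes with a peak was 61.1% (38.6% to 79.7%), beside 19.0% of all usable genes. Their median first intron was longer, 35660 bp against 8004 bp, and 38.5% of all genes with introns of 20 to 50 kb had a peak. Among the receptors, *BMPR2* had 10 peaks, the strongest of 3.80-fold, and no peak in its later introns, and *BMPR1A* had 3, the strongest of 4.06-fold. Among the transducers, *SMAD3* and *SMAD2* had 3 and 2 peaks, up to 3.59-fold and 3.49-fold. Without *BMPR2* the list was at 34.2 per Mb (21.7 to 51.3), an interval that includes the value of all genes. Wnt signalling genes had 27 peaks in 8 of 13 genes, or 36.6 per Mb (24.1 to 53.3), and 35.2 in their later introns. That is 61.5% of the genes (35.5% to 82.3%), and their median first intron was 24350 bp. The receptors *ROR1* and *ROR2* had 12 peaks and 1 peak, the cytoplasmic regulator *DAAM1* 3, up to 3.88-fold, and the kinase *TNIK* 6, up to 3.31-fold. Without *ROR1* the list was at 29.5 per Mb (16.5 to 48.7).

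Other lists were near or below all genes, or rested on few peaks. Hippo and TEAD genes were at 36.9 per Mb (16.9 to 70.0) from 9 peaks, led by the cofactor *VGLL4* (3.95-fold), the kinase *TAOK1* (3.08), the scaffold *AMOTL1* (3.02) and the tumour suppressor *NF2* (2.77). NuRD subunits had 6 peaks in 3 of 8 genes, *GATAD2B* (4 peaks, up to 3.51-fold), *MBD3* (2.97) and *GATAD2A* (2.97), which is 30.1 per Mb (11.0 to 65.4). The interval of their share of genes, 13.7% to 69.4%, includes the 19.0% of all usable genes. MAPK genes were at 21.7 per Mb (9.91 to 41.1), with the strongest peaks in the Ras regulator *NF1* (3.72-fold), the phosphatase *DUSP4* (3.30), the kinase *BRAF* (3.28) and the scaffold *KSR1* (2.96). Neural crest transcription factors were at 17.8 (6.55 to 38.8), with peaks in *SOX5*, *TWIST2*, *MEF2C* and *ETS1* between 2.76-fold and 3.14-fold, whereas their later introns held 46.3 per Mb (33.8 to 61.9). The AP-1 family had 1 peak, in *MAFF* (2.58-fold), in 10 genes with short first introns.

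Axon guidance genes were at 19.8 per Mb (14.4 to 26.6), from 44 peaks in 9 of 33 genes. That is 27.3% of the genes (15.1% to 44.2%), beside 19.0% of all usable genes. Their median first intron was 32938 bp, and 38.5% of all genes with introns of 20 to 50 kb had a peak. *SEMA6D*, *UNC5C*, *NRP2* and *SEMA3A*, guidance cues and receptors, had their strongest peaks at 4.18, 3.83, 3.62 and 3.50-fold. *SEMA5A*, singled out after its values were seen, carried 15 of the 44 peaks in its first intron at 151 per Mb and 56 peaks in its later introns at 146 per Mb, and without it the list was at 13.7 (9.17 to 19.7). Cadherins and other adhesion genes were below all genes, with 13.3 per Mb (9.37 to 18.3). Over all genes, first introns of 50 to 100 kb held 26.6 per Mb and those of 100 kb or more 16.4. The adhesion genes had long first introns, with a median of 98015 bp. Their later introns were low too, at 7.05 per Mb against 16.1 over all genes. Their strongest peaks were in *CADM1* (4.47-fold), *CNTN1* (4.01), *NCAM2* (3.45) and *PTPRM* (3.42). Genes of the invasive melanoma state had 2 peaks in 14 genes, in *LOXL2* and *EGFR* (2.74 and 2.79-fold), or 7.18 per Mb (0.869 to 25.9), and 2 of the 14 had a promoter peak. For the pigment list that was 15 of 25, and over all usable genes 36.3%.

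**Figure D4:**
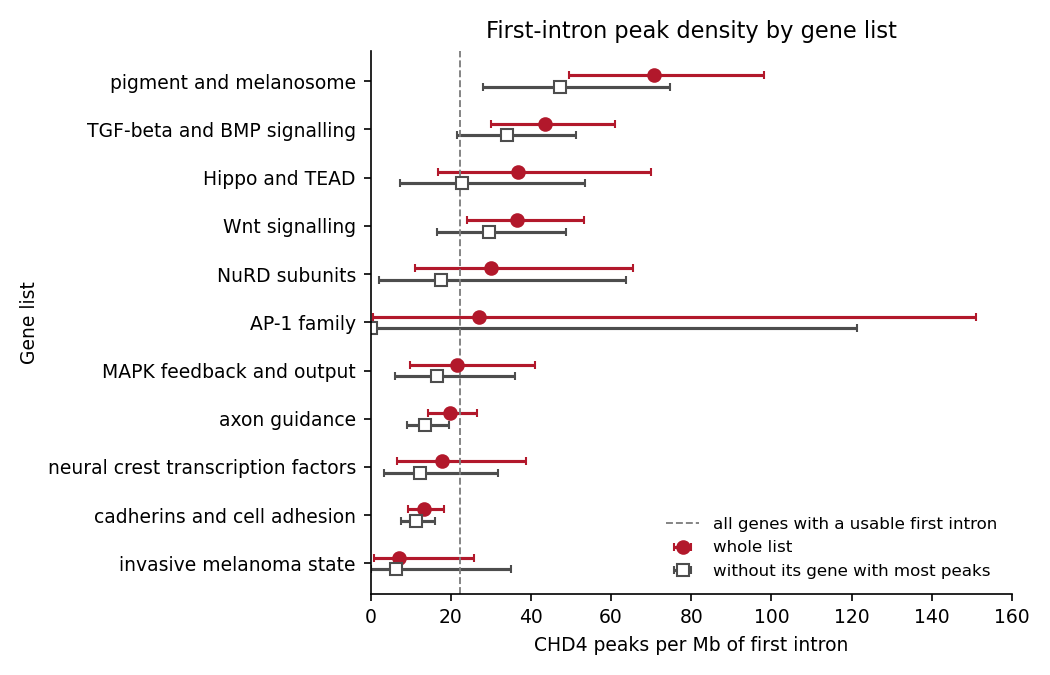
CHD4 peaks per Mb of first intron (x axis) for 11 gene lists (y axis), over the whole list (red) and without its gene with most peaks (open squares); bars are exact Poisson 95% intervals and the dashed line is the value over all genes with a usable first intron, 22.4. The list of genes named in the study is not drawn. Of the lists drawn, pigment genes lie highest at 70.8 and stay above the line without *MITF* at 47.3, and invasive-state genes lie lowest at 7.18.

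The list of genes named in the study held 16 genes, and 5 of the 12 with a usable first intron had a peak there. That is 41.7% (19.3% to 68.0%), beside 19.0% of all genes. The study also names genes that are not on the list, such as *BRAF*, *HDAC1* and *HDAC2*. The density of the list was 79.6 per Mb (51.5 to 117), above that of the pigment list. It was 37.5 (15.1 to 77.3) without *MITF*, which both lists hold. Apart from *MITF*, the genes with a peak were *MAP2*, a neuronal microtubule protein, with 4, and *PADI1*, *PADI2* and the cytokine receptor gene *CNTFR* with 1 each. The *PADI1* peak lay on chromosome 1 from 17545268 to 17545893, 13957 bp from the start, with 3.31-fold enrichment and a −log10 q of 2.96. The *PADI2* peak, from 17436716 to 17436989, was weaker, with 2.58 and 1.46. *CNTFR* had 2.74 and the strongest of *MAP2* 2.75. None of these 4 genes had an AP-1, CTCF or M-box match near the centre of its strongest peak, beside 11.7%, 0.512% and 12.2% of all members. By ChIP-seq the study places CHD4 at an element within *PADI1*, next to binding sites of CTCF and FOSL2. Whether that element is this peak was not examined. *PADI3*, *PADI4*, *CTCF*, *FOSL2*, *PKM*, *RAC2* and *SMARCA4* had no first-intron peak, and *CHD3*, *CHD4*, *SOX10* and *THY1* had no usable first intron. Among the genes the study lists as lowered after CHD4 silencing, 43 of 205 had a first-intron peak, or 21.0% (16.0% to 27.1%), against 19.0% of all genes, and their density was 22.3 per Mb (17.7 to 27.9) against 22.4. Only 74.8% of the names on the study's list of raised genes could be matched, so its values cover part of that list. Among the matched genes, 92 of 476 had a first-intron peak, or 19.3% (16.0% to 23.1%), at 16.6 per Mb (14.2 to 19.4). A promoter peak was found in 15.1% of them, beside 42.9% of the lowered genes and 36.3% of all usable genes. The unmatched names could change these values.

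Sequence was read in windows of 250 bp on either side of each peak centre, which reach beyond the shorter peaks, and in flanks 5000 bp away in the same intron under no peak, on both strands. The M-box TCATGTG was found at 12.2% of first-intron centres (11.4% to 13.1%) and 6.77% of flanks, a ratio of 1.80 (1.61 to 2.01). It was at 12.3% of later-intron centres (ratio 1.64, 1.52 to 1.78) and 11.0% of the centres of all peaks. The same letters in reverse order, of equal base composition, gave a ratio of 1.23 (1.03 to 1.48). The E-box CACGTG, the core bound by MITF and MYC, was at 6.90% against 4.23%, a ratio of 1.63 (1.41 to 1.89), and 1.02 (0.905 to 1.15) backwards. It was at 7.45% of later-intron centres and 7.97% of the centres of all peaks. The AP-1 site TGACTCA was at 11.7% (10.9% to 12.6%) against 7.59%, a ratio of 1.54 (1.38 to 1.72), and 1.17 (1.03 to 1.32) backwards. The AP-1 site was at 11.1% of later-intron centres (ratio 1.47, 1.36 to 1.60) and 10.8% of the centres of all peaks. M-box and AP-1 occurred together in 90 peaks, and 1442 had at least 1 of these 3 motifs.

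TEAD sites (ACATTCC, ratio 1.36, 1.20 to 1.54), RUNX sites (TGTGGTT, 1.28, 1.15 to 1.43), SOX sites (AACAAAG, 1.28, 1.17 to 1.39) and TFAP2 sites (GCCNNNGGC, 1.24, 1.10 to 1.39) were more frequent at centres than in flanks to a smaller extent. Backwards, the ratios were 1.18 (1.01 to 1.37) for TEAD, 1.01 (0.887 to 1.15) for RUNX, 1.14 (1.04 to 1.25) for SOX and 0.903 (0.620 to 1.32) for TFAP2, and each interval overlaps that of the motif itself, for RUNX barely. These 4 motifs were at 8.70%, 11.1%, 16.3% and 9.52% of first-intron centres and at 8.26%, 10.5%, 16.6% and 9.05% of later-intron centres. Over the centres of all peaks they were at 7.87%, 10.0%, 14.7% and 12.2%. For ETS sites (CCGGAAG, ratio 1.22), GATA sites (AGATAAG, ratio 1.12) and SP/KLF sites (GGGCGGG, ratio 1.11) the interval included 1. The E-box CAGGTG, bound by ZEB and SNAI repressors, was less frequent at centres than in flanks, 29.4% against 37.8%, a ratio of 0.779 (0.740 to 0.820), whereas its letters backwards were more frequent (1.18, 1.07 to 1.29). The NFI palindrome was in 9 centres and 1 flank window. Base composition differed little, with a median GC of 42.3% at centres and 41.7% in flanks.

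The CTCF consensus was rare. It was found at 27 first-intron centres, or 0.512% (0.352% to 0.744%), and in 0.120% of flanks, a ratio of 4.25 (2.00 to 9.03). At later-intron centres it was more frequent, 1.35% (1.16% to 1.57%), as over all peaks, 1.49%. SP/KLF sites were at 3.32% of first-intron centres (2.87% to 3.84%) and 3.11% of later-intron centres (2.81% to 3.44%), although their ratio to the flanks was 1.11 (0.915 to 1.35) in first and 1.73 (1.47 to 2.04) in later introns. Of the CTCF matches within 250 bp of a first-intron centre, 15 lay within 50 bp of it, whereas M-box and AP-1 matches fell off slowly, from 29.6 matches per 1000 peaks within 50 bp of the centre to 19.7 and 20.1 at 450 to 500 bp. Peaks with an M-box were slightly stronger, with a median of 3.08-fold (3.05 to 3.12) against 3.01 (3.004 to 3.03) without, and 45.0% of them had a q of at most 0.01 (41.2% to 48.9%) against 39.5% (38.1% to 40.9%). For AP-1 the medians were 3.06 (3.03 to 3.11) and 3.02 (3.01 to 3.03). Peaks with an AP-1 match were also longer, with a median of 691 bp against 611 bp. Those with an M-box were longer too, with 643.5 bp against 613 bp. The part of length was not tested for either motif.

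**Figure D5:**
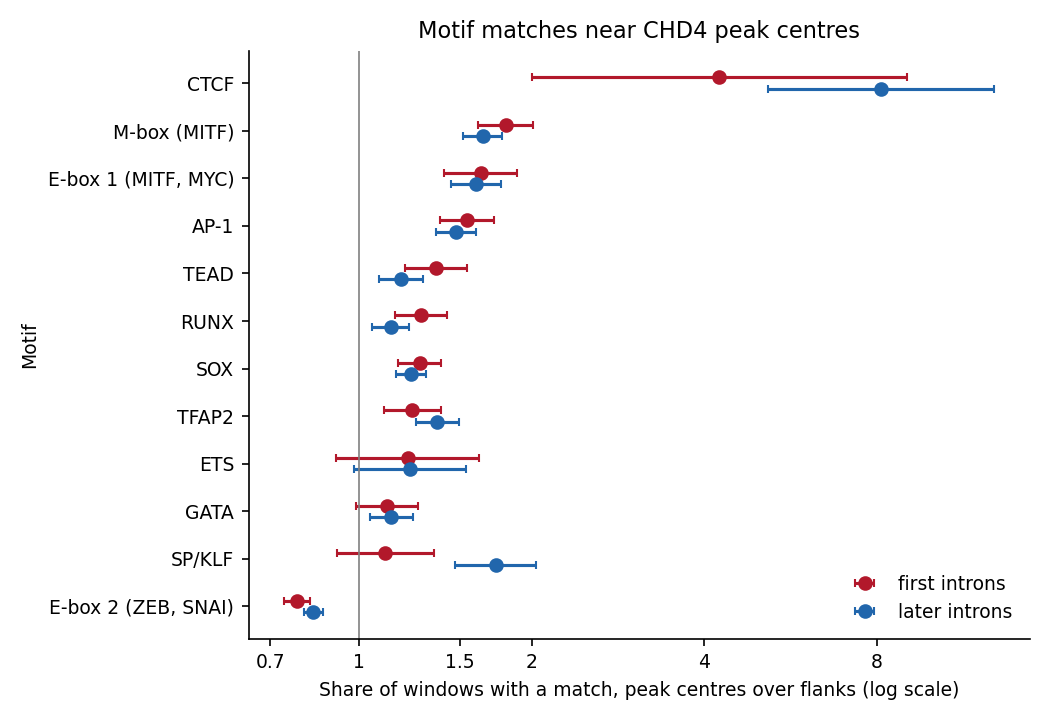
Ratio of the share of windows with a motif match at CHD4 peak centres to that in flanks 5000 bp away (x axis, log scale), for 12 motifs (y axis) in first introns (red) and later introns (blue); bars are 95% intervals for counting error and the grey line marks equal shares. E-box 1 is CACGTG and E-box 2 is CAGGTG; CTCF lies highest in both, M-box, CACGTG and AP-1 lie between 1.54 and 1.80 in first introns, and CAGGTG lies at 0.779. The NFI palindrome, with 1 flank window, is not drawn.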

How the data were processed

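A ChIP-seq library against CHD4 and 1 input library of 501Mel cells were sequenced, without replicates. The authors mapped reads to hg19 with Bowtie and called broad regions with MACS2 (bcl2fastq 2.17.1.14, Bowtie 1.0.0 and MACS2 2.1.1.20160309 per the labels). The labels name the NEXTflex kit and the methods MicroPlex. The deposited list gives for each region a fold enrichment, a ratio of ChIP to background computed by the authors. It also gives the −log10 of the q computed by the authors' peak caller, and other columns that were not used here. The study's reporting summary states a q cutoff of 0.01 with broad calling, but only 48.5% of the listed regions have a q of at most 0.01. The lowest −log10 q in the list was 1.004. The reason for the difference between the stated cutoff and the list was not examined. The list holds no read counts, so the depth behind a value is unknown here, and broad regions joined by the caller set lengths and counts.

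Regions were compared with GENCODE release 44 on GRCh37. Usable intron was the sequence of canonical introns outside the 1000 bp either side of every start and outside canonical exons, and a gene needed at least 200 usable bp in its first intron. Densities carry exact Poisson intervals, ratios of densities exact conditional binomial intervals, shares Wilson intervals and medians order statistic intervals, all at 95% and for counting error only. Peaks and genes are not replicates, so no p-value is given. Motifs were matched exactly on both strands. The CTCF consensus was searched with its degenerate letters. The sequence of 1 named peak is not reported here.

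The members and gene lists were chosen with earlier results of these data known. All names in the 12 lists were matched, 90.7% of the study's lowered genes and 74.8% of its raised genes. The genes named are those of the 12 highest peaks by fold enrichment and by −log10 q, and the 10 with most peaks. Added were the 5 densest with at least 3 peaks, at most 4 per list by fold enrichment, and the list from the study. Code was tested on simulated peaks and sequences. Tables were made with pandas 2.3.3 and numpy 2.4.6 in Python 3.11.15, intervals with scipy 1.17.1, sequences were read with pysam 0.24.0, and plots drawn with matplotlib 3.10.9.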

Additional observations from a re-analysis of the deposited data

How the results depend on the processing

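No paired analysis was possible because each kind of library was made once. Of 86 recomputed values, 53 stayed within the interval of the value reported, or within 1.5 times for the count of peaks, 33 moved and none changed direction. With a −log10 q of at least 2 required of every peak, first introns held 2119 peaks, 9.06 per Mb, with a median fold enrichment of 3.39. They lay in 10.3% of genes, 31.9% of hosts had a promoter peak, and the density ratio for genes with over without one was 2.35. With at least 5 there were 61 peaks, 0.261 per Mb, in 0.470% of genes, with a median of 4.58. The ratio of first over later introns was then 1.05, 1.01 within 100 kb of the start and 0.515 beyond. The promoter share of hosts was 1.69% and the promoter ratio 1.51, and the AP-1 and M-box ratios to flanks were 1.18 and 2.58, all on few peaks. Joining peaks within 1000 bp gave 19.0 per Mb and 18.2% of genes. Clearing 5000 bp either side of starts left 3392 peaks, 20.7 per Mb, a ratio to later introns of 1.32 (1.27 within 100 kb), peaks in 23.7% of genes and promoter peaks in 48.0% of hosts. Requiring the whole peak inside the intron gave ratios of 1.502 and, within 100 kb, 1.51. Without chromosome X the density was 23.2 per Mb. The strongest peak of each gene had a median of 3.17, with a q of at most 0.01 in 54.5%, and peaks of 400 to 1000 bp a median of 2.97 and 33.5%. Weighting to the distances of first introns gave 1.34. Leaving out the gene with most peaks, added after the data were seen, moved 4 of 12 lists beyond their interval. These were pigment genes (47.3 per Mb), the AP-1 family (0), axon guidance (13.7) and the list of genes named in the study (37.5). The cause was not tested.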

Other observations

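First-intron peak density differed between chromosomes. It was highest on chromosome 22 with 34.6 peaks per Mb (28.8 to 41.1), chromosome 1 with 34.2 (31.8 to 36.8) and chromosome 19 with 31.7 (27.2 to 36.7). It was lowest on chromosome X with 7.40 (5.81 to 9.29) and chromosome 14 with 11.4 (9.02 to 14.2). Later introns had 25.4, 21.7, 24.1, 4.63 and 9.58 per Mb on the same chromosomes. First introns were above later introns on each of the 23 chromosomes, by ratios from 1.10 (0.895 to 1.35) on chromosome 20 to 1.90 (1.64 to 2.204) on chromosome 12. The interval included 1 on chromosomes 8, 14, 15, 20 and 21.

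The 27 first-intron peaks with a CTCF consensus, looked at after their values were seen, ranged from a fold enrichment of 2.77 in *HMCN1*, which encodes an extracellular matrix protein, to 5.21 in *PDE4A*. Their median was 3.17 (3.03 to 3.58) against 3.02 (3.01 to 3.03) for the peaks without one. After *PDE4A* and *GPRIN3* the highest were *UBTD1* with 4.28, *ARNT2*, a basic helix-loop-helix PAS factor, with 4.14 and *KHDRBS3*, an RNA-binding protein, with 4.05. An AP-1 match lay in the same window in 5 of the 27, beside 11.7% of all first-intron peaks. There were 4 windows with 3 or more AP-1 matches, those of *NPFFR2* with 5 and of *DVL1*, *TRIO* and *MALL* with 3 each, and these peaks had fold enrichments between 2.79 and 2.86. The CAGGTG E-box reached 30 matches in 1 window, and 89 windows held at least 3. Whether these windows hold repeat sequence was not examined.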
